A study of Mus musculus with 18 samples.

Results

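The neutrophil chemokines Cxcl1, Cxcl2, Cxcl3 and Cxcl5 and the neutrophil genes Cxcr2, Csf3r, Trem1, Ly6g, S100a8 and S100a9 were followed through the colons of 9 mice. These 10 genes were chosen by their symbols, out of 47729 genes in the count table, and all 10 were found there. RNA from colon was sequenced in 3 groups of 3 mice: untreated wild-type mice (naive WT, mice 1 to 3), wild-type mice with colitis-associated cancer (WT CAC, mice 4 to 6) and Claudin-2TG mice with colitis-associated cancer (Cldn2TG CAC, mice 7 to 9). Colitis-associated cancer was induced with 1 dose of azoxymethane (AOM, 10 mg per kg), a carcinogen, and 3 cycles of dextran sulfate sodium (DSS, 2.5%), which injures the colonic epithelium. The Cldn2 transgene is expressed from the villin promoter, which is active in intestinal epithelium, every mouse is on a C57BL/6 background, and wild-type littermates served as controls. Ages were not analysed here. No naive transgenic mouse was among the samples, so the difference between Cldn2TG CAC and naive WT combines the transgene with the treatment.

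Neutrophils are drawn into inflamed mucosa along gradients of CXC chemokines. In the mouse, CXCL1, CXCL2, CXCL3 and CXCL5 bind CXCR2 on the neutrophil surface, and the cytokine G-CSF, acting through the receptor encoded by Csf3r, drives the production and release of neutrophils from bone marrow. TREM1 amplifies the response of the arrived cells, S100A8 and S100A9 form calprotectin, the abundant cytosolic protein of neutrophils that is measured in stool as a sign of gut inflammation, and Ly6G is the surface antigen by which mouse neutrophils are commonly stained.

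The 4 chemokine genes lie together on chromosome 5 (GRCm38): Cxcl5 at chr5:90759360-90761624, Cxcl3 at chr5:90786103-90789600, Cxcl1 at chr5:90891241-90893115 and Cxcl2 at chr5:90903871-90905938, all on the plus strand. S100a8 (chr3:90668978-90670035, plus strand) and S100a9 (chr3:90692632-90695721, minus strand) are neighbours on chromosome 3. The upstream sequence of 9 of the 10 genes was held in the RefSeq promoter table for GRCm38, all but that of Cxcl5, and the 250 bases before each start were searched on both strands for 3 short motifs. GGGNNNTTC, which covers most of the binding consensus of NF-kB, the inflammatory transcription factor, was found in 6 of the 9 genes (Cxcl1, Cxcl2, Cxcl3, Cxcr2, Csf3r and S100a9) and in 11.8% of all 32851 upstream windows in the table. The sequences of the 3 chemokines and S100a9 are printed because they carried the same 9 letters, GGGAATTTC. Capitals mark matches to GGGNNNTTC on either strand and to TATAAA on the strand of the gene, and each stretch begins 150 bases upstream of the RefSeq start and ends before the first annotated base of the gene.
Cxcl1 upstream, chr5:90891095-90891240, plus strand: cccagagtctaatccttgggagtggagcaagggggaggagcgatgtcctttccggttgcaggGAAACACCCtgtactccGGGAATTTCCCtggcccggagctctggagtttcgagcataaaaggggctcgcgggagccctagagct
Cxcl2 upstream, chr5:90903749-90903870, plus strand: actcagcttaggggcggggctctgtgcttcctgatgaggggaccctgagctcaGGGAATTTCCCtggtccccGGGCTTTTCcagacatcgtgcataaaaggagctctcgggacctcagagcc
Cxcl3 upstream, chr5:90785951-90786100, plus strand: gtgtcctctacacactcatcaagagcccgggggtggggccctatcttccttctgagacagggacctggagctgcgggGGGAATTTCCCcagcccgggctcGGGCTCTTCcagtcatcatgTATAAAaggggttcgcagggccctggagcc
S100a9 upstream, chr3:90695722-90695871, minus strand: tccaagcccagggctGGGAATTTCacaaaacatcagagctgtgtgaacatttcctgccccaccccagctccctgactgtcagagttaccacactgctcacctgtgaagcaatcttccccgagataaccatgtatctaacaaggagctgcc
The longest run shared by the Cxcl1, Cxcl2 and Cxcl3 windows was GGGAATTTCCC, 11 bases long, in which a match on the gene strand overlaps one on the other strand. It began 71 bases upstream of the start in Cxcl1, 97 in Cxcl2 and 73 in Cxcl3, and it occurred, these genes included, in 14 of the 32851 windows (0.0426%). TATAAA was held by 3 of the 9 genes (Cxcl3, Ly6g and S100a8) against 12.4% of all windows, and TTGCNNAA, the core of the C/EBP motif of myeloid genes, by 2 of 9 (Ly6g and S100a9) against 9.56%. These matches describe letters in a window and are not measured binding sites.

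**Figure D1:**
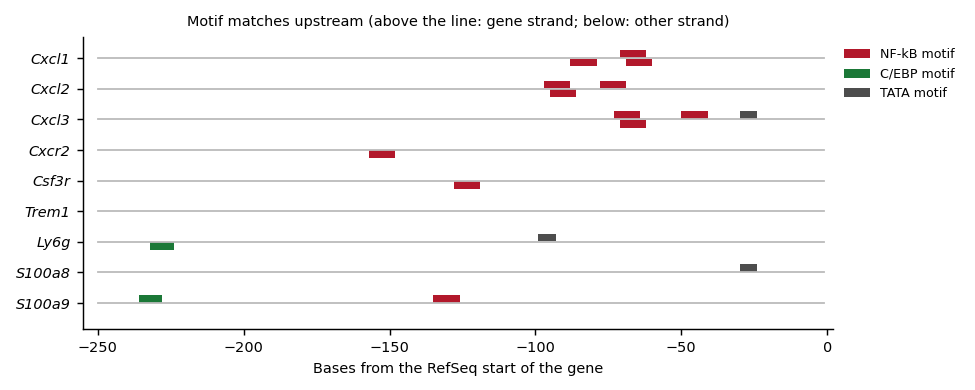
Matches to the 3 motifs in the 250 bases upstream of the RefSeq start of 9 genes, with the distance from the start in bases on the horizontal axis. Red marks the NF-kB motif, green C/EBP and grey TATA, drawn above each line for the gene strand and below for the other strand; for Ly6g, which has more than one RefSeq window, the one further upstream is drawn. Cxcl1, Cxcl2 and Cxcl3 each carry an overlapping pair of NF-kB matches within 97 bases of the start, and Trem1 carries no match.

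The libraries held 14142711 to 22262546 counts a mouse, each from 2 sequencing lanes that were summed. Cldn2, the gene carried by the transgene, was measured at 231 ± 34.9 CPM (counts per 1000000 of the TMM-normalized library size; mean ± SD, n = 3) in naive WT, 130 ± 7.75 in WT CAC and 225 ± 21.2 in Cldn2TG CAC, and was higher in Cldn2TG CAC than in WT CAC (log2 fold change 0.78, SE 0.12, edgeR adjusted p = 0.0103), an adjusted p that was 0.0580 without mouse 8 and 0.0597 without mouse 9. Cldn2 was lower in WT CAC than in naive WT (-0.82, SE 0.14, adjusted p = 0.0138), an adjusted p that was 0.0635 without mouse 2 and 0.0554 without mouse 3. Cldn2TG CAC was not called different from naive WT (-0.03, SE 0.12, adjusted p = 0.897). Naive mouse 1 stood apart in sex: Xist was at 214 CPM and Ddx3y at 0.149 CPM there, against Xist at most 0.204 CPM and Ddx3y at 34.1 to 51.4 CPM in the other 8 mice. WT CAC mouse 4 stood apart over all genes: the chi-square per degree of freedom between libraries was 66.3 against mouse 5 and 65.3 against mouse 6, compared with 31.9 between mice 5 and 6 and 16.8 to 25.1 within the other groups. Results are therefore also given without it. Colon tissue was read in bulk, so fewer neutrophils and less RNA per neutrophil cannot be told apart.

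WT CAC was compared with naive WT to show what the treatment did to these genes in wild-type colon. 5 of the 10 genes were higher in WT CAC: Cxcl5, Csf3r, Ly6g, S100a8 and S100a9 (edgeR quasi-likelihood test, adjusted p under 0.05 over all genes). Of all 15437 genes tested, 8.04% were called higher. Cxcl1 was tested and not called, and Cxcl2, Cxcl3, Cxcr2 and Trem1 did not pass the filter on low counts, which Csf3r, S100a8 and S100a9 passed through their counts in WT CAC, so these 3 could have been called in this direction alone, and the number called is a description. The 3 WT CAC mice lay above the 3 naive mice without overlap for 5 of the 6 genes tested, those called, against 18.9% of all genes tested. Cxcl3, which was not tested, was at 0 counts in the naive mice and at 2 in mouse 4, under the floor of 3 counts, so its separation from them rests on mice 5 and 6. The calls depended on single mice: without WT CAC mouse 4 all 10 genes were tested and called higher, without naive mouse 2 or naive mouse 3 none of the 10 was, and without mouse 1, 5 or 6 it was 1. The number of calls moved in the whole table too: 14.1% of all genes tested were called higher without mouse 4, 0.470% without mouse 2 and 1.45% without mouse 3. The share was 2.44% without mouse 1, 4.24% without mouse 5 and 3.77% without mouse 6.

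Cxcl5 was the most abundant of the ligands in every treated mouse. It was measured at 2.19, 1.55 and 1.72 CPM in naive mice 1 to 3, at 8.88, 163 and 153 CPM in WT CAC mice 4 to 6, and at 5.25, 5.48 and 5.12 CPM in Cldn2TG CAC mice 7 to 9. Mice 5 and 6 were high, mouse 4 was nearer to the Cldn2TG CAC mice, and the 3 groups did not overlap. The change from naive WT to WT CAC was 5.90 on the log2 scale (SE 1.12, edgeR adjusted p = 0.0224), and leaving out 1 mouse at a time gave 5.48 to 6.45. The adjusted p was 2.51e-06 without mouse 4, 0.0487 without mouse 5, and between 0.0603 and 0.0899 without mouse 1, 2, 3 or 6; it was 0.0919 without the filter on low counts.

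Cxcl1, the KC chemokine of epithelium, stroma and myeloid cells, was present in naive colon at 2.44, 1.20 and 2.11 CPM. It was measured at 0.416, 6.97 and 17.6 CPM in WT CAC mice 4 to 6 and at 0.829, 0.402 and 1.24 CPM in Cldn2TG CAC mice 7 to 9. Mouse 4 lay below all naive mice and mice 5 and 6 above them, so the groups overlapped. The fitted change in WT CAC was 2.11 (log2, SE 1.04, edgeR adjusted p = 0.210), and it was called only without mouse 4 (2.67, adjusted p = 0.00575). Without mouse 6 the change fell to 0.97 (adjusted p = 0.569).

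Cxcl2, a chemokine made largely by activated macrophages and neutrophils, gave 5, 2 and 7 counts in the naive mice, 5, 138 and 348 counts in WT CAC mice 4 to 6, and 1, 3 and 6 counts in the Cldn2TG CAC mice. Mouse 6 was the highest at 23.6 CPM, mouse 5 followed at 6.05 CPM, and mouse 4 at 0.260 CPM lay within the range of the naive mice. Cxcl3 was at 0 counts in all 3 naive mice and at 2, 80 and 51 counts in WT CAC mice 4 to 6. Over the group means, Cxcl3 in WT CAC was at 16.5 times the floor of 3 counts per library set for naive WT. That mean rests on mice 5 and 6 (3.51 and 3.46 CPM), and mouse 4 lay under its own floor (0.104 against 0.156 CPM). The Cldn2TG CAC mice had 3, 1 and 0 counts of Cxcl3. Cxcl1, Cxcl2 and Cxcl3 are close relatives in sequence, so reads that fit more than one of them may have been lost or divided in counting.

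The makeup of the ligand counts also differed between treated and naive mice. Cxcl5 took 44.9%, 54.4% and 41.7% of the summed counts of the 4 ligands in naive mice 1 to 3, beside 50.0%, 42.1% and 51.0% for Cxcl1. In the 6 treated mice Cxcl5 took 75.3 to 91.9%, and Cxcl1 3.88 to 18.3%. The share of Cxcl5 in each treated mouse lay above that in each naive mouse, mouse 4 and the Cldn2TG CAC mice included; the lowest treated share was that of mouse 9, with an exact 95% interval of 65.2 to 83.6% from 93 counts, and the highest naive share that of mouse 2, with 40.7 to 67.6% from 57 counts, so these intervals overlapped. The intervals cover counting error only.

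**Figure D2:**
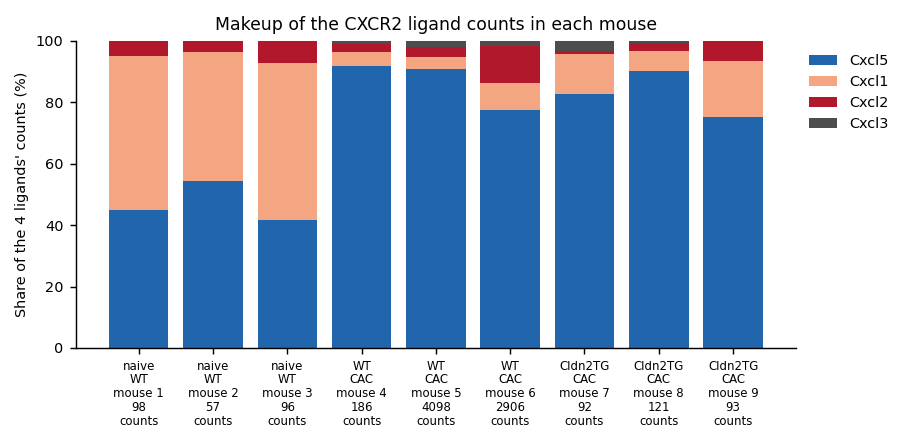
Share of each ligand in the summed counts of Cxcl1, Cxcl2, Cxcl3 and Cxcl5, in percent, 1 bar per mouse with the summed count under it. Cxcl5 (blue) fills 75.3% or more of each bar from a treated mouse and 54.4% or less of each naive bar, while the totals run from 57 counts in naive mouse 2 to 4098 in WT CAC mouse 5.

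The 2 receptors were sparse outside mouse 5. Cxcr2, the receptor of the 4 ligands, gave 1, 0 and 1 counts in naive mice 1 to 3, 0, 58 and 8 counts in WT CAC mice 4 to 6, and 1, 0 and 1 counts in Cldn2TG CAC mice 7 to 9. Csf3r gave 7, 1 and 5 counts in the naive mice, 14, 156 and 23 counts in WT CAC mice 4 to 6, and 2, 2 and 0 counts in the Cldn2TG CAC mice. Csf3r lay above the naive mice in all 3 WT CAC mice, whereas Cxcr2 was at 0 in mouse 4. The fitted change of Csf3r in WT CAC was 3.88 (log2, SE 0.99, edgeR adjusted p = 0.0410), and leaving out 1 mouse at a time gave 2.43 (without mouse 5) to 4.44 (without mouse 1). Csf3r was called in the fit without mouse 4 (adjusted p = 0.00713) and in none of the other 5 fits that left out a mouse (0.0640 to 0.138), nor without the filter on low counts (0.105).

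Trem1 gave 4, 2 and 1 counts in the naive mice, 0, 75 and 24 counts in WT CAC mice 4 to 6, and 0, 1 and 0 counts in the Cldn2TG CAC mice. As for Cxcr2, mice 5 and 6 held nearly all of the counts and mouse 4 none. The receptor and activation genes thus had their highest count in mouse 5, while the ligands Cxcl1 and Cxcl2 had theirs in mouse 6.

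S100a8 gave 1, 0 and 6 counts in the naive mice, 11, 418 and 200 counts in WT CAC mice 4 to 6, and 2, 4 and 0 counts in the Cldn2TG CAC mice. S100a9 gave 5, 0 and 7 counts in the naive mice, 15, 500 and 178 counts in mice 4 to 6, and 2, 3 and 2 counts in the Cldn2TG CAC mice. For both subunits of calprotectin the 3 WT CAC mice lay above every other mouse, with mouse 4 the nearest to the rest. The change from naive WT to WT CAC was 6.57 for S100a8 (log2, SE 1.48, edgeR adjusted p = 0.0327) and 5.92 for S100a9 (SE 1.36, adjusted p = 0.0342). Leaving out 1 mouse at a time gave 5.94 to 8.43 for S100a8, the highest without naive mouse 3, and 5.05 to 6.46 for S100a9. Without mouse 4 the adjusted p fell to 0.000273 and 0.000551, and without any other mouse neither gene was called (0.0587 to 0.114), nor were they without the filter on low counts (0.131 and 0.138).

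Ly6g went against its label. It was measured at 207, 197 and 135 CPM in naive mice 1 to 3, at 305, 324 and 321 CPM in WT CAC mice 4 to 6, and at 303, 348 and 328 CPM in Cldn2TG CAC mice 7 to 9. It was thus abundant in naive colon, where the other 5 neutrophil genes summed to 18, 3 and 20 counts a mouse, and mouse 4 lay close to mice 5 and 6. Ly6g (chr15:75155240-75159126, plus strand) was higher in WT CAC than in naive WT by 0.82 (log2, SE 0.17, edgeR adjusted p = 0.0206), and its adjusted p ranged from 0.0119 to 0.0741 when 1 mouse was left out, under 0.05 without mouse 1, 4 or 6. The cells that gave these reads were not identified, and the Ly6 family holds close relatives of Ly6g among which reads may be divided.

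**Figure D3:**
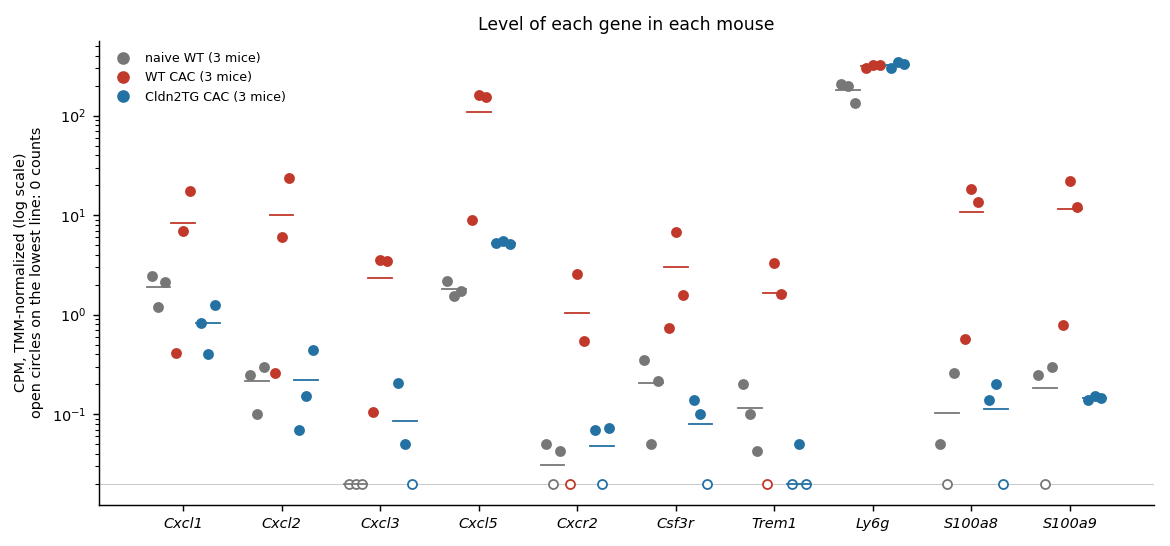
Level of each of the 10 genes in each mouse, as TMM-normalized CPM on a log scale, with short bars at group means and open circles on the lowest line for 0 counts. Grey is naive WT, red WT CAC and blue Cldn2TG CAC, 3 mice each. Ly6g sits above 100 CPM in all mice, and for most of the other genes 2 red points stand far above the third.

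WT CAC mice 5 and 6 differed from each other in which genes led. Per library size, mouse 5 had 4.68 times the Cxcr2 of mouse 6 (exact 95% interval of the count ratio 2.22 to 11.3), 4.38 times the Csf3r (2.81 to 7.11), 2.02 times the Trem1 (1.26 to 3.34) and 1.81 times the S100a9 (1.52 to 2.16). Mouse 6 had 3.91 times the Cxcl2 of mouse 5 (3.20 to 4.79) and 2.52 times the Cxcl1 (2.06 to 3.09). Cxcl3 (ratio 1.01 of mouse 5 to mouse 6, 0.704 to 1.47) and Ly6g (1.01, 0.974 to 1.05) gave intervals that include equality, and Cxcl5 differed little (1.07, 1.01 to 1.13). These intervals cover counting error between 2 libraries and say nothing of the condition.

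Per kilobase of exon, the order of the mean levels in WT CAC was Ly6g, Cxcl5, S100a9, S100a8, Cxcl2, Cxcl1, Csf3r, Cxcl3, Trem1 and Cxcr2. Ly6g spanned 323 to 344 CPM per kilobase and Cxcl5 4.77 to 87.5, so the first place was clear, but from Cxcl5 down every gene overlapped its neighbour when compared across mice. Within each of the 3 mice, Cxcl5 lay above S100a9, S100a9 above S100a8 and S100a8 above Cxcl2, with 4.77, 1.49, 0.823 and 0.126 CPM per kilobase in mouse 4. In the Cldn2TG CAC mice Ly6g (321 to 369 CPM per kilobase) and Cxcl5 (2.75 to 2.94) again came first, and the other 8 genes lay at or below 0.664. In naive WT Ly6g spanned 144 to 219 CPM per kilobase, and Cxcl1 (0.641 to 1.30) and Cxcl5 (0.833 to 1.17) overlapped.

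Cldn2TG CAC was compared with WT CAC to show the effect of the transgene under the same treatment; both comparisons use the WT CAC mice, so they are not independent. Csf3r and S100a9 were lower in Cldn2TG CAC, 2 of the 10 genes, where 7.35% of the 14888 genes tested were called lower. Cxcl1, Cxcl5 and Ly6g were tested and not called, and Cxcl2, Cxcl3, Cxcr2, Trem1 and S100a8 did not pass the filter. Csf3r and S100a9 passed it through their counts in WT CAC, so they could have been called in this direction alone, and their number is a description. The groups did not overlap for 3 of the 5 genes tested (Cxcl5, Csf3r and S100a9, all lower), against 15.2% of all genes tested that were lower without overlap, and the same held for S100a8, which is not among the genes tested. With 3 mice against 3, the two-sided exact permutation test cannot give a p below 0.1, and it gave 0.1 for each of these 4 genes.

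Csf3r changed by -5.12 on the log2 scale (SE 1.15, edgeR adjusted p = 0.0340) and S100a9 by -6.26 (SE 1.37, adjusted p = 0.0386). Leaving out 1 mouse at a time gave -5.58 to -3.65 for Csf3r and -6.81 to -5.38 for S100a9, both smallest in size without mouse 5. Csf3r was called without mouse 4, 5 or 6 and not without mouse 7, 8 or 9 (0.110 to 0.135), and S100a9 was called without mouse 4 alone (1.53e-05, against 0.0676 to 0.143 in the other 5 fits). Without the filter on low counts neither was called (adjusted p = 0.0886 for Csf3r and 0.154 for S100a9). Cxcl5, at 255 counts over the 3 Cldn2TG CAC mice and 6140 over the 3 WT CAC mice, changed by -4.36 (SE 1.04, adjusted p = 0.0535), just past the threshold, and was called without mouse 4 (2.98e-07). Cxcl1 changed by -3.36 (SE 1.20, adjusted p = 0.148). It changed by -3.92 without mouse 4 (adjusted p = 0.00122) and by -2.19 without mouse 6 (adjusted p = 0.334).

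The 5 genes that were not tested here were sparse in Cldn2TG CAC. S100a8 summed to 6 counts over the 3 Cldn2TG CAC mice and 629 over the WT CAC mice, and Cxcl2 to 10 and 491. Cxcl3 summed to 4 and 133 counts, Trem1 to 1 and 99, and Cxcr2 to 2 and 66. In each of these genes mouse 5 or mouse 6 supplied most of the WT CAC counts; mouse 4 had 0 counts of Cxcr2 and Trem1, as some Cldn2TG CAC mice did. Without mouse 4, 8 of the 9 genes then tested were called lower, all but Ly6g, and without mouse 7, 8 or 9 none was. Over all genes tested, 13.1% were called lower without mouse 4, and 2.41%, 0.316% and 0.546% without mouse 7, 8 or 9, so the number of calls moved in the whole table too. Ly6g changed by 0.04 (SE 0.12, edgeR adjusted p = 0.902), and each mouse of both groups lay between 303 and 348 CPM.

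Cldn2TG CAC was compared with naive WT to ask which of these genes differed between treated transgenic colon and untreated colon. Cxcl5 and Ly6g were higher in Cldn2TG CAC, 2 of the 10 genes, where 3.92% of the 15013 genes tested were called higher; Cxcl1 was tested and not called, and the other 7 did not pass the filter. Cxcl5 and Ly6g were also those without overlap on the higher side, against 15.0% of genes tested. Cxcl5 changed by 1.54 (log2, SE 0.23, edgeR adjusted p = 0.00448) and Ly6g by 0.87 (SE 0.15, adjusted p = 0.00881), and both were called in all 6 fits that left out 1 mouse. The call of Cxcl5 was lost when the spread was estimated from all 9 mice (adjusted p = 0.450). Cxcl1 changed by -1.25 (SE 0.43, adjusted p = 0.0924), with overlapping groups, and it was called lower without the filter on low counts (adjusted p = 0.0141) and with lane 2 alone (0.0343). Scaling by library size alone moved the median of all genes from 0.00 to -0.11 in this comparison and left both calls in place.

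The other neutrophil genes were at naive levels in the Cldn2TG CAC mice as far as these depths can show. Cxcr2, Csf3r, Trem1, S100a8 and S100a9 summed to 0.895, 0.150 and 0.860 CPM in naive mice 1 to 3, to 2.08, 52.9 and 29.4 CPM in WT CAC mice 4 to 6, and to 0.483, 0.503 and 0.220 CPM in Cldn2TG CAC mice 7 to 9. The naive and Cldn2TG CAC ranges overlapped, at 3 to 20 counts a mouse. For S100a8 the ratio of Cldn2TG CAC to naive counts was 1.13 with an exact 95% interval of 0.314 to 3.93, and for S100a9 it was 0.769 (0.257 to 2.12). For Csf3r it was 0.406 (0.0964 to 1.31), for Trem1 0.188 (0.00418 to 1.47) and for Cxcr2 1.32 (0.0956 to 18.2). Differences of severalfold were thus not detectable. These intervals use counts pooled over the 3 mice of a group and cover counting error only, not the spread between mice.

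**Figure D4:**
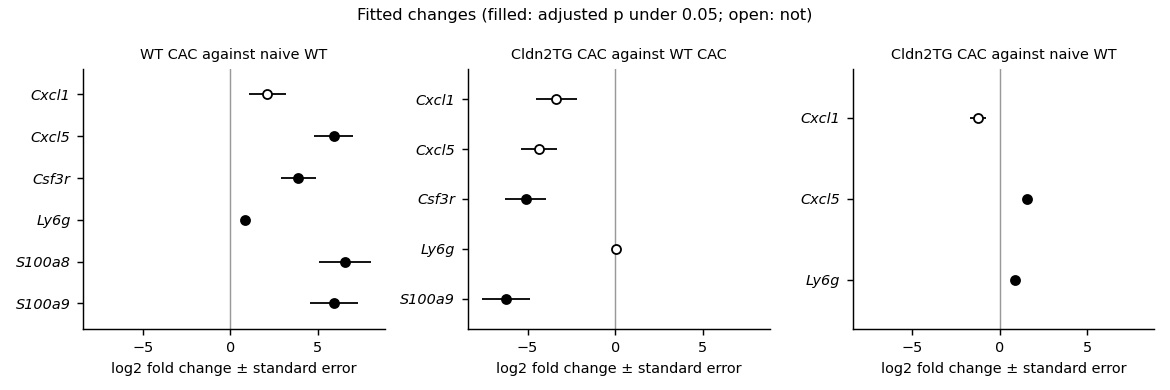
Log2 fold changes with standard errors for the genes that passed the filter in each comparison, filled where the edgeR adjusted p is under 0.05. Cxcl5 and Ly6g are filled to the right of 0 in both comparisons with naive WT, and Csf3r and S100a9 are filled to the left in Cldn2TG CAC against WT CAC, where Ly6g lies at 0.04.

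Pglyrp1, Cd177 and Slfn4, which neutrophils also express, were abundant in naive colon, as Ly6g was: Pglyrp1 spanned 379 to 426 CPM in the naive mice, Cd177 202 to 511 CPM and Slfn4 54.0 to 159 CPM. The azurophil granule genes Mpo, Elane, Prtn3 and Ctsg, transcribed mainly in bone marrow precursors, summed to at most 0.204 CPM in any mouse, and Ngp was at 0 in all 9. Of the 8 genes of specific and gelatinase granules 4 were tested in WT CAC against naive WT, and 3 rose: Ltf (lactoferrin, log2 fold change 3.94, SE 0.64, edgeR adjusted p = 0.0129), Mmp9 (gelatinase B, 3.73, SE 0.73, adjusted p = 0.0198) and Pglyrp1 (1.20, SE 0.27, adjusted p = 0.0290). Ltf (-2.93) and Mmp9 (-3.19) were lower in Cldn2TG CAC than in WT CAC, 2 of 4 tested, and none of 3 tested was called against naive WT; the shares over all genes tested were 8.04% higher, 7.35% lower and 3.92% higher. Ltf was at most 0.473 CPM in the naive mice and passed the filter through WT CAC, so it could have been called in that direction alone. Mmp9 was at most 0.516 CPM in the naive mice, so the filter favoured its being higher in WT CAC. Lcn2, the lipocalin made by neutrophils and inflamed epithelium, was at 32.2 and 110 CPM in mice 5 and 6 and between 0.571 and 1.76 CPM in the other 7 mice, and was called in neither comparison with WT CAC.

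**Figure D5:**
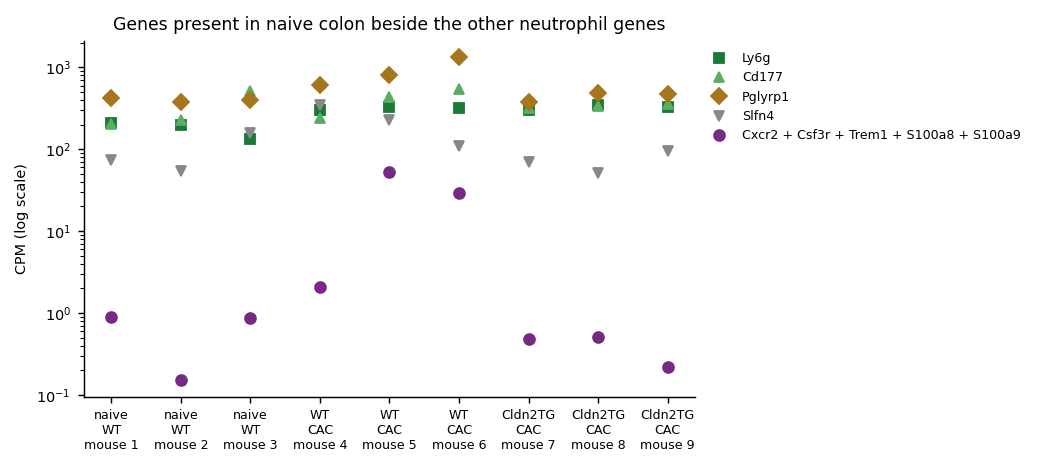
CPM on a log scale in each mouse for Ly6g, Cd177, Pglyrp1, Slfn4 and the sum of Cxcr2, Csf3r, Trem1, S100a8 and S100a9. The 4 single genes sit at 50.8 CPM or more in all 9 mice, and the sum (purple circles) reaches 52.9 and 29.4 CPM in WT CAC mice 5 and 6 and stays at or below 2.08 CPM elsewhere.

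Among 21 genes of mature neutrophils, 8 were tested in WT CAC against naive WT and 5 rose (8.04% of all genes tested were called higher): the decoy receptor Il1r2 (3.97), the itaconate enzyme Acod1 (3.86), the protease Asprv1 (3.65), the histamine enzyme Hdc (2.83) and the Fc receptor Fcgr4 (2.30). Il1r2 was at most 0.215 CPM and Acod1 at most 0.497 CPM in the naive mice and passed the filter on low counts through WT CAC. Hdc and Fcgr4, at most 0.559 and 0.774 CPM in the naive mice, needed the WT CAC mice to pass it too. The filter thus favoured genes that were higher in WT CAC, and the genes of the list that did not pass it are not described by these counts. In Cldn2TG CAC against WT CAC, 3 of 8 were lower (Acod1 -4.73, Il1r2 -3.94 and Asprv1 -2.04), beside 7.35% of all genes. Acod1 was at most 0.302 CPM and Il1r2 at most 0.276 CPM in the Cldn2TG CAC mice. Both passed the filter through WT CAC, so they could have been called in this direction alone, and the number is a description. Against naive WT 1 of 4 was higher in Cldn2TG CAC (Asprv1, 1.61), beside 3.92%. Of the 6 genes of the phagocyte NADPH oxidase, which makes superoxide in neutrophils and macrophages alike, 5 rose in WT CAC (Cybb, Cyba, Ncf1, Ncf4 and Rac2, by 1.41 to 1.88) and the same 5 were lower in Cldn2TG CAC than in WT CAC (by -0.91 to -2.62); Cyba alone was higher in Cldn2TG CAC than in naive WT (0.49).

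Of 25 other ligands, receptors and regulators of neutrophil recruitment 14 were tested in WT CAC against naive WT, and 5 rose: Il1b (4.10), Il23a (3.36), the leukotriene B4 receptor Ltb4r1 (2.03), Zc3h12a, a ribonuclease that degrades cytokine mRNA (1.49), and the platelet chemokine Pf4 (0.96). Of all genes tested 8.04% were higher, and the filter again favoured genes high in WT CAC. Il23a was at most 0.172 CPM in the naive mice and passed through WT CAC, so it could have been called in this direction alone. In Cldn2TG CAC against WT CAC, Il1b (-4.00) and Pf4 (-1.24) were lower and Il17rc, a subunit of the IL-17 receptor, was higher (0.72), so 2 of 12 tested were lower and 1 higher, where 7.35% of all genes were called lower and 2.19% higher. Il17rc was measured at 201 to 222 CPM in naive WT, 132 to 202 CPM in WT CAC and 227 to 286 CPM in Cldn2TG CAC. Against naive WT the chemokine scavenger Ackr1 was lower (-1.49), 1 of 12 tested, beside 6.07% of all genes called lower. Il1b followed the split of the WT CAC mice, with 1.82 CPM in mouse 4, 18.7 in mouse 5 and 10.2 in mouse 6, against at most 0.878 CPM elsewhere. Csf3, the ligand of Csf3r, was at or below 0.340 CPM in every mouse.

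Markers of other cell types moved with these genes. Of 11 macrophage and monocyte markers 10 were tested, and 6 rose in WT CAC (Csf1r, Cd68, C1qa, C1qb, C1qc and Mrc1, by 1.58 to 2.04), beside 8.04% of all genes tested, while 9 were lower in Cldn2TG CAC than in WT CAC (median of the 10, -2.27), beside 7.35%, and 1 lower than in naive WT (Cx3cr1, -1.94), beside 6.07%. Their summed level was 35.1 to 51.3 CPM in naive WT, 79.7, 191 and 193 CPM in WT CAC mice 4 to 6, and 25.6 to 45.6 CPM in Cldn2TG CAC, with none of the 11 at 0 except Cd163 in mouse 6. The 7 T and B cell markers summed to 4.21 to 20.3, 34.1 to 39.4 and 6.88 to 13.9 CPM in the 3 groups, and Cd3d, Cd4 and Cd8a rose in WT CAC while these and Cd79a were lower in Cldn2TG CAC. The mitochondrial share of counts was 2.86 to 3.50% in naive WT, 3.54 to 4.69% in WT CAC and 4.58 to 5.76% in Cldn2TG CAC, both treated groups without overlap with naive WT. The part of these markers and of this share in the results above was not tested.

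Squamous epithelium markers, 11 genes that normal colonic epithelium hardly expresses, summed to 13.4 to 19.6 CPM in naive WT, 33.4 to 79.7 CPM in WT CAC and 16.3 to 20.7 CPM in Cldn2TG CAC. Of 6 tested, Krt14 (3.90), Krt13 (4.75) and Krt4 (4.84) rose in WT CAC, Krt14 (-2.91) and Krt13 (-4.74) were lower in Cldn2TG CAC, and none of 4 was called against naive WT (8.04% higher, 7.35% lower and 3.92% higher over all genes). Krt4 was at most 0.129 CPM in the naive mice and passed the filter through WT CAC, so it could have been called in that direction alone. Krt13 was at most 0.645 CPM in the naive mice and 0.878 CPM in the Cldn2TG CAC mice. It needed the WT CAC mice to pass, so the filter favoured its being higher there in both comparisons. The defining marker Trp63 was at 0 in 7 of 9 mice and Krt5 at or below 0.156 CPM in all. The 6 fibroblast markers summed to 291 to 418, 456 to 1109 and 180 to 258 CPM, with 0 called in WT CAC against naive WT, Col1a2 (-1.79) and Col3a1 (-1.74) lower in Cldn2TG CAC than in WT CAC, and Col1a2 (-0.86) lower than in naive WT. The 3 endothelial markers summed to 22.1 to 26.4, 20.5 to 29.1 and 9.46 to 13.0 CPM, and Pecam1 and Cdh5 were lower in Cldn2TG CAC than in both other groups and Kdr lower than in naive WT, where 6.07% of all genes were called lower. The 8 colon epithelium markers summed to 13344 to 19555 CPM over all mice with 1 call, Krt8 higher in Cldn2TG CAC than in naive WT (0.43), and of the 4 eosinophil markers only Siglecf was tested, with no call. The part of these markers in the chemokine and neutrophil results was not tested.

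The genes most like Cxcl5 over the 9 mice, among 13915 genes with a mean of at least 1 CPM, were Rtn4 (Pearson r of log2 CPM 0.993), Acot9 (0.988), Map4k4 (0.988), Rbm24 (0.988) and Arid5a (0.988). Those most like Ly6g were Gm15446 (0.969), Tra2a (0.968), 2310011J03Rik (0.967), Cybc1 (0.961) and Cda (0.957). The lists shared no gene, and the 9 points include the differences between the 3 groups.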

How the data were processed

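The authors deposited 1 table of raw gene counts with a column per mouse and lane, 18 columns for 9 mice, none left without a sample. The reads were mapped and counted with featureCounts of the Subread package; the paper names TopHat2 as the aligner and the submitters' processing notes HISAT2, with GRCm38. Versions, annotation release and strand setting are not given in the sources used here, so overlapping and antisense genes cannot be separated. The table also holds gene lengths, which were used for levels per kilobase.

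Lanes were summed per mouse. Groups came from the deposited labels, in which the AOM/DSS protocol is repeated for every sample and naive WT is marked as Control, and replicate numbers are not shared between groups. Nothing in the labels states that the 9 libraries come from separate cages or litters, so p-values measure the spread between these mice. Each pair of groups was fitted separately with edgeR 4.0.16 (R 4.3.3): TMM normalization, filterByExpr (minimum count 10), robust quasi-likelihood test, two-sided, Benjamini-Hochberg adjustment over all genes tested, threshold 0.05. DESeq2 1.42.0 was an alternative. Scripts were tested on simulated counts. Single genes were also compared by two-sided exact permutation tests of log2(CPM + 0.5). Ratios of counts carry exact 95% intervals scaled to library size; the floor for a count of 0 is 3 counts per library.

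The 10 genes and the 12 other gene lists, including those of granules, mature neutrophils, NADPH oxidase, recruitment and 7 other cell types, were chosen with earlier results of these data known, so their counts are descriptions. Named were the 10 genes, up to 4 genes per other list with the highest mean CPM or those that a count of 5 or fewer refers to, the 5 genes most like Cxcl5 and Ly6g, and Cldn2; other named genes (Lcn2, Csf3, Ngp, Slfn4, Trp63, Krt5, Cd163, Xist and Ddx3y, and called genes of longer counts) were chosen after their values were seen. Positions are those of GENCODE release M21 (GRCm38), and upstream sequence from RefSeq.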

Additional observations from a re-analysis of the deposited data

How the results depend on the processing

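The number of the 10 genes called in WT CAC against naive WT was 5; it was 1 without the filter on low counts, 2 when 10 counts were required in every mouse, 2 with lane 1 alone and 2 with lane 2 alone, and 0 to 10 when 1 mouse was left out. In Cldn2TG CAC against WT CAC it was 2; it was 0 without the filter, 0 with 10 counts in every mouse, 0 with lane 1, 0 with lane 2, 4 (Cxcl5, Csf3r, S100a8 and S100a9) with all 9 mice in 1 fit, 3 with DESeq2, and 0 to 8 when 1 mouse was left out. In Cldn2TG CAC against naive WT it was 2, 1 with all 9 mice in the fit, 3 without the filter and 3 with lane 2 alone (Cxcl1 called lower in both), and 2 in each fit without 1 mouse. Requiring 10 counts in every mouse, or using 1 lane, leaves fewer of the genes tested. Over all genes, WT CAC against naive WT gave 2310 calls, 135 (without mouse 2) to 4080 (without mouse 4) when 1 mouse was left out. Cldn2TG CAC against WT CAC gave 1421 calls, 908 with 10 counts in every mouse, 2136 with all 9 mice, and 58 (without mouse 8) to 2894 (without mouse 4). Cldn2TG CAC against naive WT gave 1501, 2567 without the filter, 445 with all 9 mice, and 525 to 1383; 589 of the 1501 were higher, against 276 of 1586 with scaling by library size alone. The cause of the other shifts was not tested. Of single-gene results for genes tested in the main fit, 68 of those from all mice kept their side of the threshold, 4 newly passed it and 7 lost it. Without 1 mouse the numbers were 51, 3 and 30. Genes tested only in another fit, such as Cxcl2 and Cxcl3 without mouse 4, are not among these numbers, so new calls of such genes are left out. No called gene changed direction. No paired analysis was possible because the groups share no replicate numbers.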
